A study of Mus musculus with 154 samples.

Results

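The genes described here belong to the transcriptional arm of the integrated stress response that is controlled by ATF4. They were chosen by name from a list of 9 symbols (Asns, Atf4, Atf5, Ddit3, Trib3, Sesn2, Psat1, Phgdh and Nupr1), and 7 of them are among the 13289 genes of the count table. Phgdh and Nupr1 were not analysed here. Expression was measured by RNA-Seq in the liver of mice from 24 strains at an age of 5 weeks, after an overnight fast. The study reports that all of these mice were male. The control strain was B6 (C57BL/6J, n = 20). Each of 8 single chromosome substitution strains (CSSs) carried 1 chromosome from strain A/J in the heterozygous state on a B6 background, with 7 to 8 mice per strain. Chromosomes 3, 6, 14 and 17 came from the dam, as in (B6.A3 x B6)F1, and chromosomes 4, 5, 8 and 10 came from the sire, as in (B6 x B6.A4)F1. Each of 15 double CSSs was heterozygous for a dam-derived and a sire-derived A/J chromosome, with 3 to 6 mice per strain, and covered every pairing of these chromosomes other than 3 with 4. A substitution replaces a whole chromosome with all of its variants, and in heterozygous mice only dominant or semi-dominant effects can be seen. The parent of origin cannot be told apart from the substituted chromosome, because each chromosome came from the same parent in all crosses.

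In the integrated stress response, kinases that sense amino acid shortage, unfolded protein in the endoplasmic reticulum, heme deficiency or viral RNA phosphorylate the translation factor eIF2alpha. General translation falls, while the mRNA of Atf4 is translated more efficiently, so that the level of Atf4 mRNA is only part of the control of the ATF4 protein. ATF4 then raises the transcription of genes for amino acid synthesis and transport, tRNA charging and redox balance, and of the feedback regulators of the same pathway. In the liver this program is best known as the response to diets that lack an amino acid, to mitochondrial faults and to endoplasmic reticulum stress.

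ATF4 binds DNA as a dimer with C/EBP proteins at elements with the core TGATGNAA, in which N is any base. The element was searched for on both strands in the RefSeq window around each gene's start (250 bases before and 50 after, build GRCm38.p6). Of the 7 genes, all had such a sequence and 2 held the core, whereas 4.51% of all genes with a RefSeq promoter and 2.74% of those in the count table held it. Both matches are shown because they belong to Asns, the gene with the largest differences between strains, and to Trib3, which departed from additivity in crosses with chromosome 8. Capitals mark the core, and both are read 5′ to 3′ along the strand of the gene.
Asns, chr6:7693215-7693242, minus strand: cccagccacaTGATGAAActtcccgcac
Trib3, chr2:152344029-152344056, minus strand: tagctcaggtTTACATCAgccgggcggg
The Asns core begins 23 bases before the RefSeq start and lies in an untranslated exon of 1 of the 7 GENCODE transcripts. The Trib3 core is in the reverse direction, begins 14 bases after the RefSeq start and lies outside the 3 GENCODE transcripts of the gene. Psat1 and Atf5, whose levels moved with Asns in several results described here, held no match in this window.

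Total counts per mouse lay between 4638701 and 30465477 (median 16116424). As a check of the labelled tissue, 8 of 8 hepatocyte markers were measured, and their summed level was between 79616 and 128411 CPM (counts scaled to the library size) in the strain means. In (B6.A14 x B6.A4)F1, replicate 3 summed to 2.94 CPM over 4 Y-linked genes, whereas the other mice had between 228 and 432 CPM, and results of the genes in this cross are therefore also given without it. In bulk tissue, fewer cells of a type and less RNA per cell cannot be told apart.

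Asparagine synthetase, encoded by Asns on chromosome 6 (chr6:7675169-7693254, minus strand, GENCODE vM21), makes asparagine from aspartate and glutamine and is a classical target of ATF4. In B6 mice the level of Asns was 20.3 ± 12.5 CPM (SD, n = 20), and the 20 mice ranged from 7.36 to 54.8 CPM with a median of 15.7 CPM. Of the other 23 strains, 20 had a lower mean than B6 on the log2 scale and 3 had a higher mean. The level of Asns in 58 of the 134 CSS mice was below that of the lowest B6 mouse, while 1 CSS mouse was above the highest. The lowest strain was (B6.A14 x B6.A5)F1, in which the 5 mice had 1.67, 1.97, 4.72, 0.407 and 3.49 CPM. The 5 mice of (B6.A3 x B6.A5)F1 had 4.99, 1.91, 3.33, 0.961 and 1 CPM, and the 4 mice of (B6.A6 x B6.A5)F1 had 6.91, 2.76, 6.48 and 1.97 CPM. All 14 mice of these 3 strains were below every B6 mouse, and no other strain was separated from B6 in this way. At the other end, the 4 mice of (B6.A17 x B6.A10)F1 had 14.4, 29.8, 18.7 and 46.2 CPM, and the 8 mice of (B6 x B6.A10)F1 ranged from 10.6 to 61 CPM with a median of 17.4 CPM. Both of these strains overlapped the range of B6 almost completely.

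**Figure D1:**
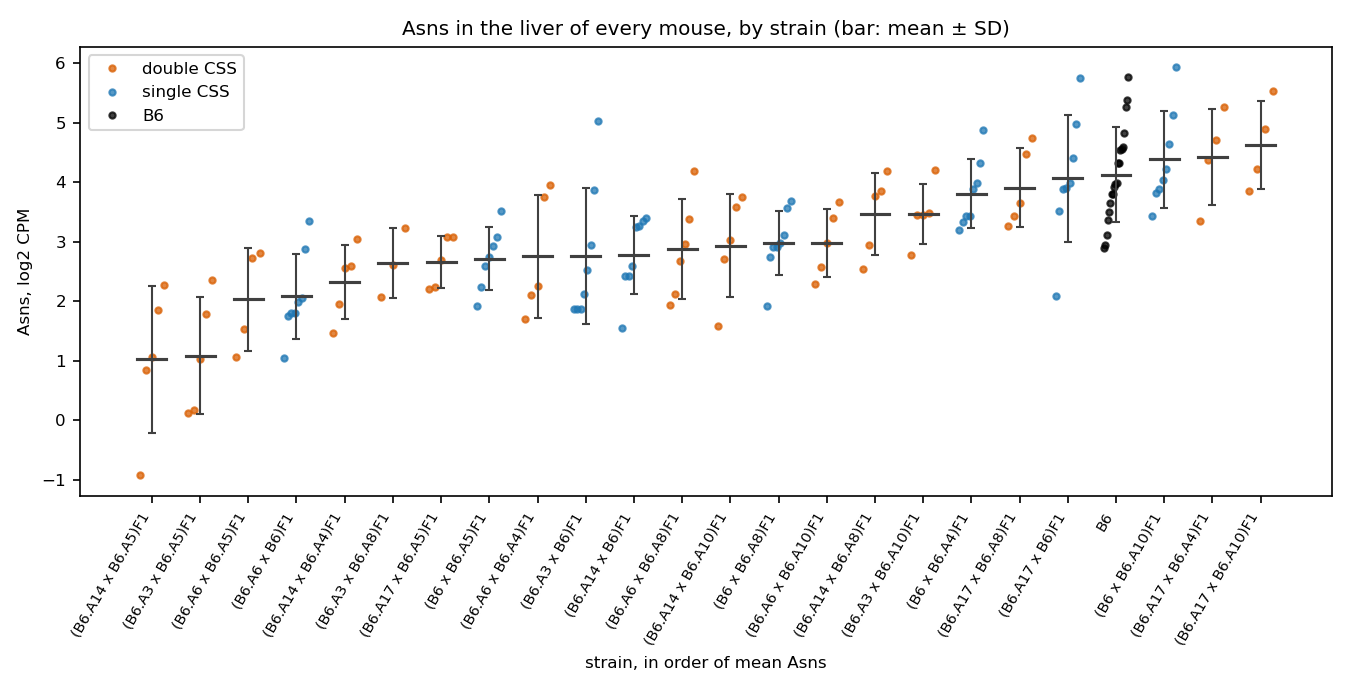
Level of Asns (log2 CPM) in the liver of every mouse, with strains in the order of their mean. Points are mice, horizontal bars are strain means and error bars are 1 SD. The strain means rise from 1.02 in (B6.A14 x B6.A5)F1 to 4.63 in (B6.A17 x B6.A10)F1, and the mice of neighbouring strains overlap throughout.

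The strain means of Asns spanned 3.61 on the log2 scale, but the order was continuous. Between strains that are neighbours in this order, the difference was at most 0.94 (log2 CPM), between the strains (B6.A3 x B6.A5)F1 below and (B6.A6 x B6.A5)F1 above, with a median of 0.06. None of the 23 differences passed a two-sided exact permutation test of the means, in which 0 pairs had an unadjusted p below 0.05, the smallest p was 0.159 and the smallest Benjamini-Hochberg adjusted value was 0.993. The pairs were chosen by sorting the strains on the same means, which makes the gaps small, and the groups hold few mice, so these tests do not show that adjacent strains are alike.

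Effects were estimated in 1 model of all mice with 8 main effects (the single CSS against B6) and 15 interactions (by how much a double CSS departed, in log2, from its 2 main effects added up), with 5 surrogate variables for unmodelled variation. A gene was called when the Benjamini-Hochberg adjusted p of edgeR's quasi-likelihood F-test was below 0.05. The joint test of all strain coefficients called 7 of the 7 genes, as it did 51.4% of all genes. The adjusted p from edgeR was 2.06e-14 for Asns and 0.00016 for Atf5, and between 0.00358 and 0.0462 for the other 5. The largest value belonged to Atf4, whose call was lost in 34 of 65 refits that each left out 1 mouse of a small double CSS, and Ddit3 lost its call in 14 of 65. The highest edgeR adjusted p was 0.0776 for Atf4, without (B6.A14 x B6.A10)F1 replicate 4, and 0.0715 for Ddit3, without (B6.A14 x B6.A4)F1 replicate 5. The joint test of the 15 interactions called Atf5, Trib3 and Ddit3, with edgeR adjusted p of 0.0132, 0.0246 and 0.0401, against 27.4% of all genes. The call for Trib3 was lost without (B6.A3 x B6.A8)F1 replicate 3 (edgeR adjusted p = 0.0812), and that for Ddit3 was lost in 7 of 65 such refits, with the highest edgeR adjusted p of 0.0818 without (B6.A6 x B6.A10)F1 replicate 2. For Asns this joint value was 0.0833 (edgeR adjusted p).

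Over the 8 main effects, 13 of the 56 pairs of gene and substitution were called, 12 lower and 1 higher than B6. Among all genes, 5.74% of such pairs were called lower and 5.32% higher. The median log2 fold change over the 56 pairs was -0.24, compared with -0.0011 over all genes. Asns and Atf5 made up 10 of the 13 calls, Psat1 2 and Atf4 1. No main effect was called for Ddit3, Trib3 or Sesn2. Of the 56 pairs, 22 had an unadjusted p below 0.05 in edgeR's test. The share of all genes at this unadjusted threshold is not given here, so the count has no background beside it.

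Asns was lower than B6 in 5 of the 8 single CSSs. In the single CSS for chromosome 6, (B6.A6 x B6)F1, the 8 mice ranged from 1.95 to 10.1 CPM with a median of 3.61 CPM, and 7 of them were below the lowest B6 mouse. The fitted difference was 3.5-fold (log2 fold change -1.81, SE 0.33, edgeR adjusted p = 9.41e-06), against 8.09% of all genes called for this substitution. Since Asns lies on chromosome 6, this was the one cis effect among the 5. In (B6.A14 x B6)F1 the range was 2.8 to 10.5 CPM (median 7.63 CPM), with 4 of 8 mice below every B6 mouse, and Asns was 3.2-fold lower (log2 fold change -1.68, SE 0.32, edgeR adjusted p = 3.04e-05, 22.5% of all genes called). In (B6 x B6.A5)F1 the 7 mice ranged from 3.68 to 11.3 CPM (median 6.59 CPM). All 7 were below the median of B6, and Asns was 2.77-fold lower (log2 fold change -1.47, SE 0.33, edgeR adjusted p = 0.0236) in a substitution with few calls, 0.768% of all genes.

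In (B6.A3 x B6)F1 the range of Asns was wide, from 3.52 to 32.5 CPM with a median of 4.92 CPM. Here 7 of 8 mice were below the median of B6, and the difference was 2.56-fold (log2 fold change -1.35, SE 0.30, edgeR adjusted p = 0.00483, 3.7% of all genes called). In (B6 x B6.A8)F1 the 8 mice ranged from 3.67 to 12.7 CPM (median 7.6 CPM) and all were below the median of B6. Asns was 2.24-fold lower in this strain (log2 fold change -1.16, SE 0.33, edgeR adjusted p = 0.00396), and 29.6% of all genes were called. For chromosomes 4, 10 and 17 the fitted log2 fold changes lay between -0.25 and 0.15 and were not called. The share of all genes called for these substitutions was 13.5%, 6.64% and 3.67%. The call for chromosome 3 was lost without surrogate variables (edgeR adjusted p = 0.0822), and the calls for chromosomes 5 and 8 were lost with 10 of them (edgeR adjusted p = 0.0549 and 0.062), that for chromosome 5 also with surrogate variables from unscaled counts (edgeR adjusted p = 0.0544). The calls for chromosomes 6 and 14 held under all 10 alternatives of the model.

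**Figure D2:**
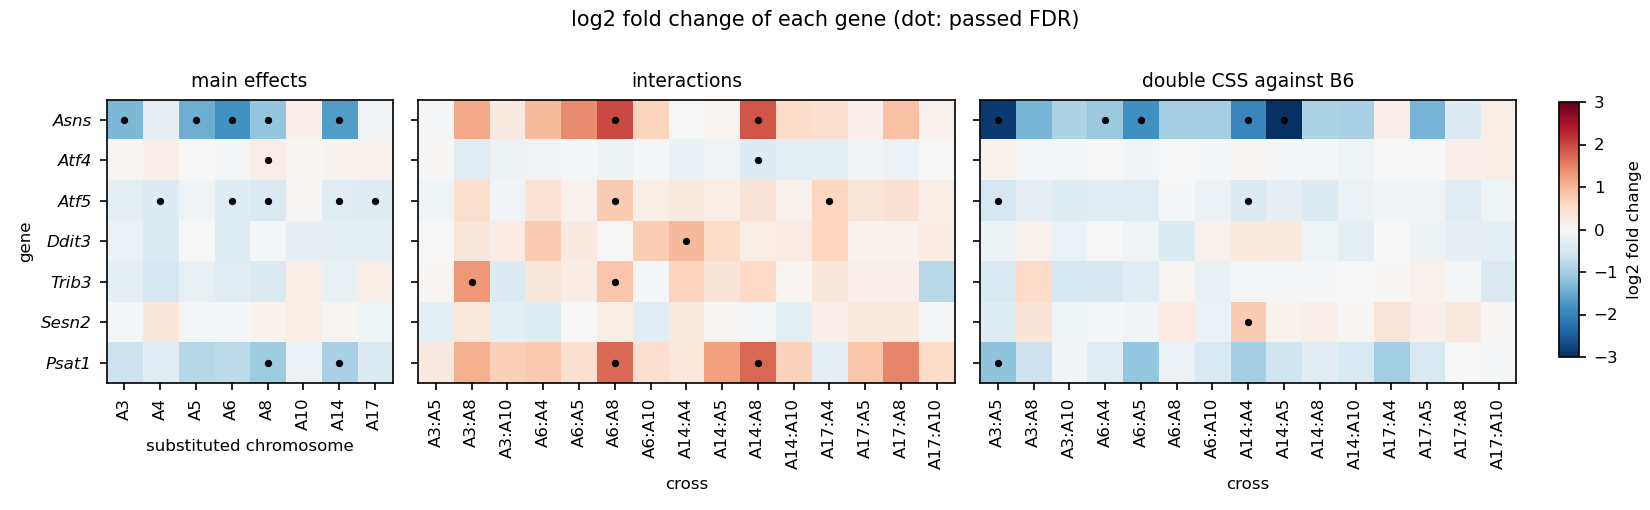
Fitted log2 fold change of the 7 genes for the 8 main effects, the 15 interactions and the 15 double CSSs against B6, with a dot where the edgeR adjusted p was below 0.05. Of 13 called main effects 12 are negative (blue), of 10 called interactions 9 are positive (red), and Asns and Psat1 have the deepest colours.

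Over the 15 interactions, 10 of 105 pairs of gene and cross were called, compared with 5.96% of such pairs over all genes, and 9 of the 10 were positive. The 105 pairs had a median log2 value of 0.23, compared with 0.01 over all genes. An unadjusted p below 0.05 in edgeR's test was found for 27 pairs, again without the share of all genes at that threshold. All 10 calls fell in 5 crosses, A6:A8, A14:A8, A3:A8, A14:A4 and A17:A4, in a notation that writes A6:A8 for the cross (B6.A6 x B6.A8)F1. The share of all genes called differed widely between these crosses, at 24.8% for A6:A8, 32.4% for A14:A8, 7.56% for A3:A8, 4.63% for A14:A4 and 1.21% for A17:A4. In A6:A8, 4 of the 7 genes were called and in A14:A8 3 of the 7, so that in these crosses the genes stood against a background in which a large share of the liver transcriptome was called.

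For Asns, 13 of the 15 interaction estimates were positive and 2 were called. The 6 mice of (B6.A6 x B6.A8)F1 ranged from 3.71 to 18.1 CPM with a median of 6.98 CPM, and 3 of them were within the range of B6. The mean of this double CSS was 2.88 (log2 CPM), whereas the means of the B6 mice and of both single CSSs (4.13, 2.08 and 2.98) would give 0.93 if both differences simply added up. The level of Asns was thus above the additive value and close to that of the single CSS for chromosome 8, and the interaction was 1.98 on the log2 scale (SE 0.51, edgeR adjusted p = 0.002). In (B6.A14 x B6.A8)F1 the 5 mice had 18.2, 13.6, 14.3, 7.57 and 5.69 CPM. Of these, 4 were within the range of B6, and the mean of 3.46 (log2 CPM) compared with an additive value of 1.63. The interaction in this cross was 1.88 (SE 0.53, edgeR adjusted p = 0.00276) and was lost with 10 surrogate variables (1.60, edgeR adjusted p = 0.0732). It was called in each of the 5 refits that left out 1 mouse of the cross, with values between 1.84 and 1.97.

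**Figure D3:**
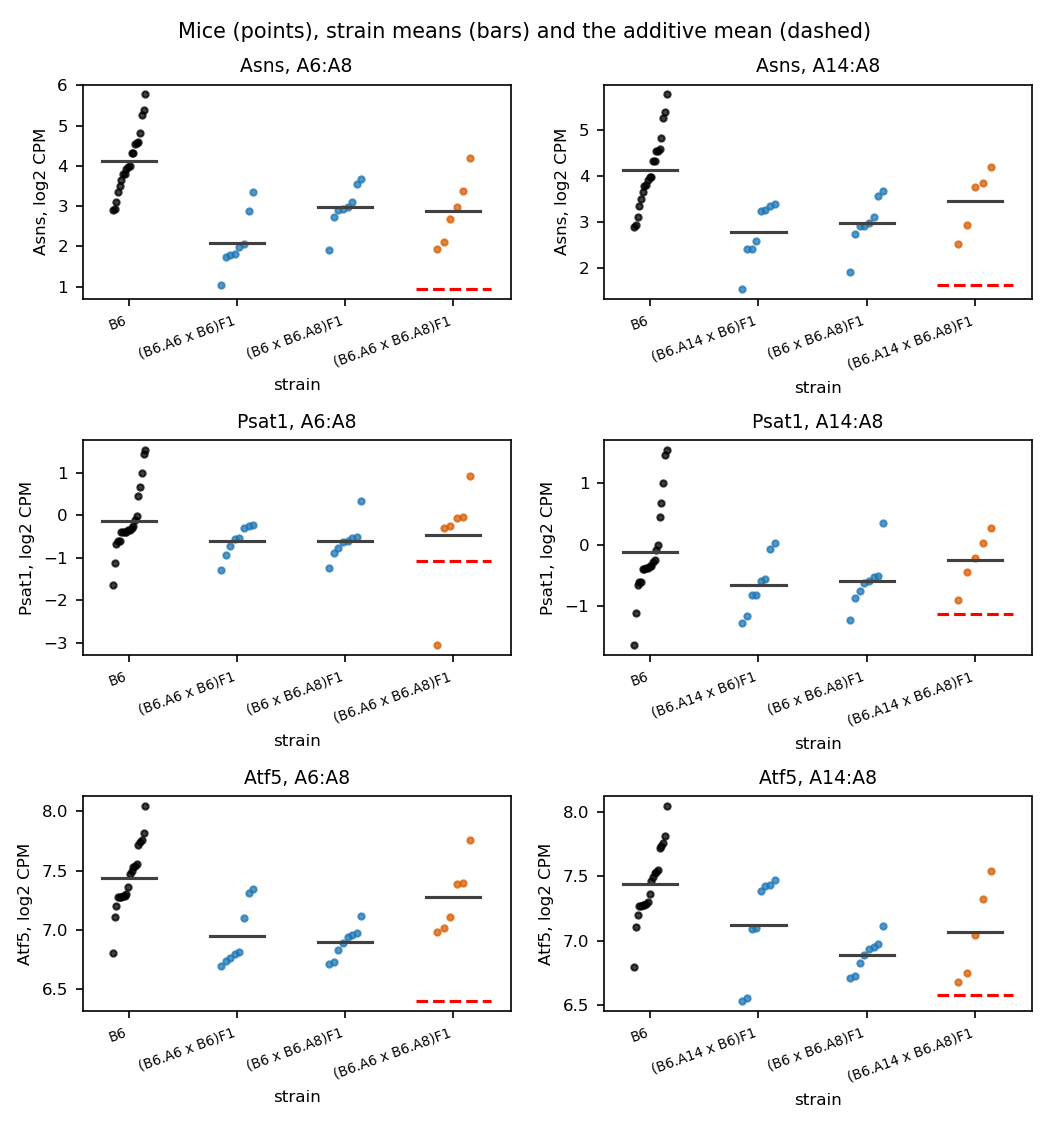
Levels of Asns, Psat1 and Atf5 (log2 CPM) in B6, both single CSSs and the double CSS for A6:A8 (left) and A14:A8 (right). Points are mice, solid bars are strain means and the dashed line is the mean expected if both single differences added up. For Asns the double CSS means are 2.88 and 3.46 and the additive values are 0.93 and 1.63.

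When the double CSSs were compared with B6 directly, 9 of 105 pairs were called, against 3.98% of all such pairs, with 8 lower and 1 higher. For Asns the interactions in the 3 strains separated from B6 were 0.07 in A14:A5, -0.05 in A3:A5 and 1.43 in A6:A5, and none was called. In (B6.A14 x B6.A5)F1 Asns was 8.43-fold lower than in B6 (log2 fold change -3.07, SE 0.46, edgeR adjusted p = 1.86e-06), in a strain where 1.53% of all genes were called. It was 7.31-fold lower in (B6.A3 x B6.A5)F1 (log2 fold change -2.87, SE 0.48, edgeR adjusted p = 8.75e-06), where the share of all genes was 13.5%. In (B6.A6 x B6.A5)F1 it was 3.6-fold lower (log2 fold change -1.85, SE 0.46, edgeR adjusted p = 0.00405), with 2.42% of all genes called. These 3 calls held under all 10 alternatives of the model and when each mouse of the strain was left out in turn. In (B6.A14 x B6.A4)F1 the Asns levels were 5.91, 3.74, 2.65, 8.15 and 5.79 CPM in 5 mice, and 4 of them were below every B6 mouse. The difference was 3.85-fold (log2 fold change -1.95, SE 0.40, edgeR adjusted p = 0.000254, 13.9% of all genes called), and without the mouse that lacked Y-linked counts it was -1.56 (edgeR adjusted p = 0.00958). In (B6.A6 x B6.A4)F1 the 5 mice had 3.13, 4.16, 15.4, 4.66 and 13.4 CPM. This strain was split, with 3 mice below and 2 mice within the range of B6. The log2 fold change was -1.11 (SE 0.37, edgeR adjusted p = 0.0285, 4.82% of all genes called), and the call was lost without replicate 1, 2 or 4 (edgeR adjusted p of 0.125, 0.0962 and 0.109). In the other 10 double CSSs the estimates for Asns lay between -1.40 and 0.18 and were not called.

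Psat1 (chr19:15904678-15947337, minus strand) encodes phosphoserine aminotransferase, an enzyme of serine synthesis. It was barely expressed, with 0 to 58 counts per mouse (median 10) and 114 mice below 15 counts, so that the precision of its values is limited by counting. Per kilobase of exon the level in B6 was 0.225 ± 0.167 CPM (SD, n = 20), compared with 7.41 ± 4.56 for Asns. The B6 mice ranged from 0.2 to 2.79 CPM (median 0.664 CPM). In (B6 x B6.A8)F1 the 8 mice ranged from 0.305 to 1.15 CPM (median 0.535 CPM) and in (B6.A14 x B6)F1 from 0.291 to 0.902 CPM (median 0.493 CPM). These ranges lie inside that of B6, though 7 of 8 and 6 of 8 mice were below its median. The fitted decreases were 2.11-fold for chromosome 8 (log2 fold change -1.08, SE 0.32, edgeR adjusted p = 0.00683) and 1.97-fold for chromosome 14 (log2 fold change -0.98, SE 0.30, edgeR adjusted p = 0.0121). The latter was lost without surrogate variables (edgeR adjusted p = 0.0536) and with 10 of them (edgeR adjusted p = 0.07).

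The interactions of Psat1 were called in the same crosses as those of Asns and with the same sign. The 5 mice of (B6.A14 x B6.A8)F1 had 0.413, 0.739, 1.09, 0.894 and 0.612 CPM, and the 6 mice of (B6.A6 x B6.A8)F1 ranged from 0 to 1.78 CPM (median 0.775 CPM). Most of these mice were above the medians of the single CSSs, and the mouse with 0 counts came from (B6.A6 x B6.A8)F1. The fitted interaction was 1.72 in A14:A8 (SE 0.52, edgeR adjusted p = 0.00646) and 1.70 in A6:A8 (SE 0.49, edgeR adjusted p = 0.00527). On the log2 CPM scale, in which a prior count of 2 pulls low values together and no surrogate variables are removed, the same departures were 0.88 and 0.61. In (B6.A3 x B6.A5)F1, where Asns was also low, the 5 mice had 0.512, 0.182, 0.554, 0.101 and 0.471 CPM of Psat1 and all were below the median of B6. The log2 fold change was -1.21 (SE 0.43, edgeR adjusted p = 0.0469), and this call was lost without replicate 1, 2 or 4 (edgeR adjusted p of 0.0526, 0.218 and 0.227). The filter that the study states, at least 15 counts in 75% of the mice, leaves 11852 genes when applied to the table and removes Psat1, so that no value was obtained for it under that alternative.

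Atf5 (chr7:44812256-44816658, minus strand) encodes a transcription factor related to ATF4 that is induced by the same pathway and is also controlled at translation. It was the most abundant of the 7 genes per length, with 88.8 ± 17.8 CPM per kilobase in B6 (SD, n = 20). The B6 mice ranged from 111 to 264 CPM (median 171 CPM), and 22 of the 23 CSSs had a lower mean. No strain was separated from B6, although 17 CSS mice were below the lowest B6 mouse and none was above the highest. The lowest single CSS was (B6 x B6.A8)F1, whose 8 mice ranged from 105 to 139 CPM (median 120 CPM). Atf5 was 1.35-fold lower in this strain (log2 fold change -0.44, SE 0.11, edgeR adjusted p = 0.00162). For chromosomes 4, 6, 14 and 17 it was 1.26-fold to 1.31-fold lower, with log2 fold changes between -0.39 and -0.33, SEs of 0.10 to 0.11 and edgeR adjusted p from 0.00727 to 0.0388. Compared with Asns, the decreases of Atf5 were thus small in size, and they were called for chromosomes 4 and 17, whereas those for chromosomes 3 and 5 were not (edgeR adjusted p = 0.0764 and 0.759). All 5 calls were lost with 10 surrogate variables (edgeR adjusted p from 0.0777 to 0.301), with log2 fold changes between -0.31 and -0.20.

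In A6:A8 the level of Atf5 was above the additive value, as was that of Asns and Psat1. The 6 mice of (B6.A6 x B6.A8)F1 ranged from 126 to 216 CPM (median 152.6 CPM), inside the range of B6. Their mean of 7.28 (log2 CPM) was above that of both single CSSs (6.94 and 6.89) and above the additive value of 6.39. The interaction was 0.76 (SE 0.17, edgeR adjusted p = 0.000293) and was lost with 10 surrogate variables (0.55, edgeR adjusted p = 0.0681). In (B6.A17 x B6.A4)F1 the 4 mice had 162.9, 186.6, 165.6 and 158.7 CPM, against ranges of 99.5 to 172 CPM in (B6.A17 x B6)F1 and 99.6 to 149 CPM in (B6 x B6.A4)F1. All 4 mice were above every mouse of the single CSS for chromosome 4. The interaction of 0.64 (SE 0.18, edgeR adjusted p = 0.0471) was lost when any of the 4 mice was left out, with edgeR adjusted p from 0.0625 to 0.117. Against B6, Atf5 was 1.45-fold lower in (B6.A3 x B6.A5)F1 (log2 fold change -0.53, SE 0.12, edgeR adjusted p = 0.00165), where the 5 mice had 148, 84.9, 121, 114 and 118 CPM. In (B6.A14 x B6.A4)F1 the 5 mice had 109.4, 138.8, 181.3, 128.2 and 147.8 CPM. The lowest of these mice was below every B6 mouse and the highest was above the B6 median, and the log2 fold change of -0.42 (SE 0.12, edgeR adjusted p = 0.0124) was -0.45 without the mouse that lacked Y-linked counts (edgeR adjusted p = 0.0209) and was lost without replicate 1 or 2 (edgeR adjusted p = 0.0757 and 0.073).

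Atf4 itself (chr15:80255184-80257541, plus strand) varied little. The B6 mice ranged from 46.4 to 91.2 CPM with a median of 55.1 CPM, and the strain means of the log2 values spanned 0.34, compared with 3.61 for Asns. Means below that of B6 were found in 12 strains and means above it in 11. The 8 mice of (B6 x B6.A8)F1 ranged from 48.3 to 73.7 CPM (median 54.4 CPM), inside the range of B6. The model gave a log2 fold change of 0.21 for chromosome 8 (SE 0.07, edgeR adjusted p = 0.0206), but without surrogate variables the value was -0.05 (edgeR adjusted p = 0.683) and with surrogate variables from unscaled counts it was -0.02 (edgeR adjusted p = 0.867). In (B6.A14 x B6.A8)F1 the 5 mice had 55.1, 52.1, 50.4, 56.3 and 51.6 CPM, close to the B6 median. The interaction of -0.38 (SE 0.12, edgeR adjusted p = 0.0073) was -0.10 without surrogate variables (edgeR adjusted p = 0.599) and -0.07 with 10 (edgeR adjusted p = 0.787). Both calls were thus lost under some treatments of unmodelled variation, and that for chromosome 8 changed sign.

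Ddit3 (chr10:127290774-127296288, plus strand) encodes CHOP, a transcription factor linked to cell death under prolonged stress. The B6 mice ranged from 1.91 to 6.14 CPM with a mean of 4.1 ± 1.16 (SD, n = 20). No main effect and no double CSS was called for it. All 15 interaction estimates of the model were positive, from 0.01 to 0.97, and 1 was called, whereas on the log2 CPM scale without surrogate variables 9 crosses were above the additive value and 6 below it. Ddit3 in the 5 mice of this cross, (B6.A14 x B6.A4)F1, was at 5.16, 3.18, 3.24, 4.98 and 6.12 CPM. They lay in the range of B6, whereas the medians were 3.67 CPM in (B6.A14 x B6)F1 and 3.62 CPM in (B6 x B6.A4)F1. The interaction was 0.97 (SE 0.26, edgeR adjusted p = 0.016), and without the mouse that lacked Y-linked counts it was 0.99 (edgeR adjusted p = 0.0248). On the log2 CPM scale the departure was 0.53, and the call was lost without surrogate variables (0.53, edgeR adjusted p = 0.183).

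Trib3 (chr2:152337422-152344032, minus strand) encodes a pseudokinase that binds ATF4 and CHOP and restrains them, and also inhibits the kinase AKT of insulin signaling. In B6 it ranged from 2.51 to 11.6 CPM (median 6.97 CPM), and its strain means spanned 1.28 on the log2 scale. The highest strain was (B6.A3 x B6.A8)F1, in which the 3 mice had 9.07, 9.65 and 12.3 CPM. All 3 were above the medians of both single CSSs, (B6.A3 x B6)F1 with 2.87 to 9.89 CPM and (B6 x B6.A8)F1 with 2.3 to 6.56 CPM, and above every mouse of the latter. The mean of 3.37 (log2 CPM) compared with an additive value of 1.97, and the interaction was 1.30 (SE 0.35, edgeR adjusted p = 0.0131). It was lost without replicate 3 (1.19, edgeR adjusted p = 0.096) and with 10 surrogate variables (0.81, edgeR adjusted p = 0.178). In A6:A8 the interaction was 0.83 (SE 0.32, edgeR adjusted p = 0.0477), and the 6 mice of the double CSS ranged from 4.57 to 7.99 CPM with a median of 7.37 CPM. These mice overlapped with B6 and with both single CSSs. The call in A6:A8 was lost under 4 alternatives at the same threshold, with the lowest value at 0.41 with 10 surrogate variables (edgeR adjusted p = 0.514).

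Sesn2 (chr4:132492032-132510501, minus strand) encodes sestrin 2, a leucine sensor that holds back mTORC1. Its main effects and interactions were not called in any substitution or cross, with log2 fold changes between -0.13 and 0.35 and between -0.37 and 0.33. It was called in a single strain against B6. Sesn2 in (B6.A14 x B6.A4)F1 was at 11.2, 14.4, 13.3, 10 and 11.6 CPM in the 5 mice, whereas the 20 B6 mice ranged from 4.51 to 9.99 CPM with a median of 7.09 CPM. The groups did not overlap, and Sesn2 was 1.69-fold higher than in B6 (log2 fold change 0.75, SE 0.16, edgeR adjusted p = 0.000151, in a strain where 13.9% of all genes were called). Without the mouse that lacked Y-linked counts the value was 0.77 (edgeR adjusted p = 0.000556), and the call held under all 10 alternatives and without any 1 mouse of the cross. In the same 5 mice Asns was 3.85-fold lower than in B6. Sesn2 lies on chromosome 4, and in the single CSS for that chromosome the 8 mice ranged from 6.32 to 10.6 CPM (median 8.65 CPM), with a log2 fold change of 0.35 that missed the threshold (SE 0.14, edgeR adjusted p = 0.0648).

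Other genes of the pathway were examined as lists. Among 7 measured genes of serine and one-carbon metabolism, 14 of 56 pairs were called in main effects, 11 lower and 3 higher, and 7 of 105 in interactions, all higher. Mthfd1l, a mitochondrial enzyme of one-carbon metabolism, had an interaction of 1.51 in A14:A8 (SE 0.37, edgeR adjusted p = 0.000647), and Shmt1, which interconverts serine and glycine, one of 0.83 (SE 0.12, edgeR adjusted p = 1.41e-08). Psph, the phosphatase of the last step of serine synthesis, was higher with chromosome 5 (0.74, SE 0.11, edgeR adjusted p = 6.52e-08, 0.768% of all genes called). A list of 13 genes held aminoacyl-tRNA synthetases and the tRNA export factor Xpot. Of these 13, 8 were lower with chromosome 8 (29.6% of all genes called) and 8 with chromosome 14 (22.5%), and none was higher in any main effect. In interactions 26 of 195 pairs were called, all higher, of which 9 were in A14:A8 (32.4% of all genes) and 8 in A6:A8 (24.8%). Iars and Eprs, which charge the tRNAs of isoleucine and of glutamate and proline, had interactions of 0.63 (SE 0.10, edgeR adjusted p = 3.48e-07) and 0.57 (SE 0.09, edgeR adjusted p = 3.65e-07) in A14:A8.

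Of 9 amino acid transporters, 4 were lower with chromosome 8 (29.6% of all genes called), and 5 of 135 interactions were called, all higher, a share of 3.7% that is below the 5.96% of all genes. Slc7a5, the light chain of a leucine transporter, and Slc38a2, a glutamine transporter, had interactions of 0.99 (SE 0.27, edgeR adjusted p = 0.00395) and 0.95 (SE 0.28, edgeR adjusted p = 0.00685) in A6:A8. Of 19 other ATF4 targets, 10 were lower and none higher with chromosome 8 (29.6% of all genes called), and over all crosses 28 interactions were called higher and 2 lower (10.5% of pairs, compared with 5.96% over all genes). Ddit4, an inhibitor of mTORC1 that glucocorticoids also induce, had the highest value in A6:A8 (2.13, SE 0.63, edgeR adjusted p = 0.00705). In A14:A4, where Ddit3 was called, Gdf15, a hormone secreted under cell stress, had an interaction of 2.30 (SE 0.57, edgeR adjusted p = 0.01), which was 2.26 without the mouse that lacked Y-linked counts (edgeR adjusted p = 0.0233). Vldlr, a lipoprotein receptor, had one of 1.92 (SE 0.46, edgeR adjusted p = 0.00751), and without that mouse it was 1.46 and no longer called (edgeR adjusted p = 0.0737). Of the upstream genes, Eif2ak3, which encodes the eIF2alpha kinase PERK, had an interaction of 0.86 in A14:A4 (SE 0.15, edgeR adjusted p = 0.000114) and of 0.87 without the same mouse (edgeR adjusted p = 0.000221). Ppp1r15a, the phosphatase subunit that reverses the phosphorylation, had one of -0.66 in A14:A8 (SE 0.20, edgeR adjusted p = 0.00596). Over the 5 lists 16.1% of main effects and 8.93% of interactions were called, compared with 11.1% and 5.96% over all genes. The shares of main effects and interactions were 18.3% and 13.3% for the list of synthetases with Xpot, 15.1% and 10.5% for the other ATF4 targets, 25% and 6.67% for the serine and one-carbon enzymes, 12.5% and 5.83% for the eIF2 kinases and their partners, and 11.1% and 3.7% for the transporters.

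Genes of other responses moved in the same crosses. Of 13 genes induced by fasting and glucocorticoids, 8 were lower and none higher with chromosome 8 (29.6% of all genes called), and 6 had positive interactions in A6:A8 (24.8% of all genes) and 6 in A3:A8 (7.56%). Igfbp1, a fasting-induced binding protein of insulin-like growth factors, had an interaction of 2.26 in A6:A8 (SE 0.55, edgeR adjusted p = 0.00099), and in A3:A8 Fkbp5 and Tat, both induced by glucocorticoids, had 1.40 and 1.38 (SE 0.36 and 0.34, edgeR adjusted p = 0.00873 and 0.00387). Of 9 feeding-induced genes, 3 were lower with chromosome 8 (29.6% of all genes called) and 2 were higher with chromosome 6 (8.09%). Their interactions were higher for 4 in A14:A8 (32.4% of all genes), and in A6:A8 1 was higher and 2 were lower (24.8%). Fasn, of fatty acid synthesis, had an interaction of 0.93 in A14:A8 (SE 0.24, edgeR adjusted p = 0.00149) and Scd1 was higher with chromosome 6 (0.90, SE 0.20, edgeR adjusted p = 0.00211). A list of 16 endoplasmic reticulum stress genes of the ATF6 and XBP1 branches held chaperones, degradation factors such as Syvn1, and Atf6 and Xbp1. Of its 128 main effects, 15 were called higher and 7 lower, compared with 11.1% called over all genes. With chromosome 4, 6 were higher and 1 lower (13.5% of all genes called). Against B6, 10 of the 16 were higher and none lower in (B6.A14 x B6.A4)F1, where Sesn2 was higher and 13.9% of all genes were called. This count includes the mouse that lacked Y-linked counts. Dnajb9 and Syvn1 of this list had interactions of 1.17 (SE 0.17, edgeR adjusted p = 1.18e-06) and 0.78 (SE 0.18, edgeR adjusted p = 0.00596) in A14:A4, which were 1.17 and 0.84 without the mouse that lacked Y-linked counts (edgeR adjusted p = 5.97e-06 and 0.0071), and Sdf2l1 one of -0.92 in A14:A8 (SE 0.32, edgeR adjusted p = 0.0164). The part of fasting state or food intake in the levels of Asns was not tested.

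Mice of the same strain carry the same substituted chromosomes, and Asns differed widely between them. The ratio of the highest to the lowest mouse of a strain was between 1.87 and 13 (median 3.63), and the highest ratio belonged to (B6.A17 x B6)F1, whose 8 mice ranged from 4.13 to 53.7 CPM. The SD of the log2 CPM values within a strain was between 0.43 and 1.23. Pooled over strains it was 0.80, compared with a median of 0.227 over all genes, and 140 of the 13289 genes had a higher value. Among 2105 genes with an average level within 0.5 (log2 CPM) of that of Asns, 99.4% had a lower SD. The 20 B6 mice alone gave 0.80. The SD of Trib3 was 0.48 and that of Atf5 0.26, and 95.8% and 88.6% of the genes of like level had a lower SD. For Sesn2, Psat1, Ddit3 and Atf4 (SDs of 0.35, 0.65, 0.37 and 0.20) the corresponding shares were 90.3%, 87%, 78.8% and 78.1%.

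**Figure D4:**
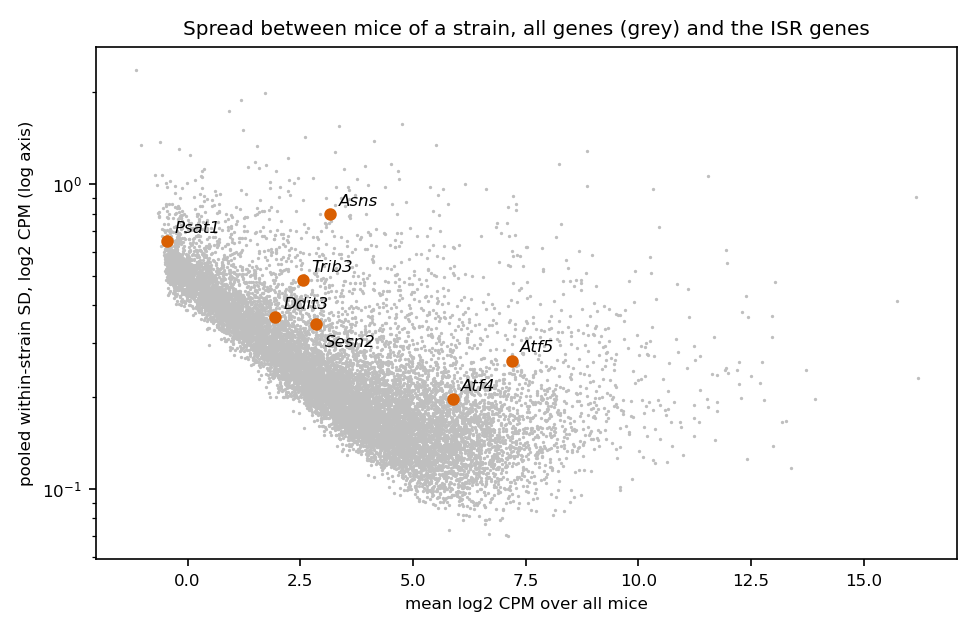
Pooled SD of log2 CPM between mice of the same strain (log axis) against the mean log2 CPM of the gene, for all genes (grey) and for the 7 genes of the integrated stress response (orange). Asns, at an SD of 0.80, lies above 99.4% of the genes of like level, and Psat1, at 0.65, lies above 87% of those of its own level.

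Asns was compared with the other 6 genes across mice after the strain mean had been removed, over 6 pairs with 100000 two-sided permutations of the mice within strains. Atf5 rose and fell with Asns, with Pearson's r = 0.37 (permutation p = 3e-05, adjusted 0.00018) and Spearman's rho = 0.32 (permutation p = 0.00021, adjusted 0.00126) over all mice of the 24 strains. Both genes deviated from their strain mean in the same direction in 89 mice. For Psat1 the values were r = 0.31 (permutation p = 0.00029, adjusted 0.00087) and rho = 0.25 (permutation p = 0.00358, adjusted 0.0107), with 86 mice on the same side of both means. Without the 2 mice farthest from the median of Asns, r was 0.34 for Atf5 and 0.32 for Psat1. The other 4 genes showed no detectable relation, with rho of -0.05 for Atf4, 0.07 for Ddit3, -0.0043 for Trib3 and -0.08 for Sesn2 and adjusted permutation p between 0.655 and 0.961. In the 20 B6 mice alone the estimates were 0.30 for Atf5 and 0.35 for Psat1 and neither passed (adjusted permutation p = 0.588 for both). After 5 surrogate variables had also been removed, rho was 0.22 for Atf5 (adjusted permutation p = 0.0354) and 0.29 for Psat1 (adjusted permutation p = 0.00624).

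**Figure D5:**
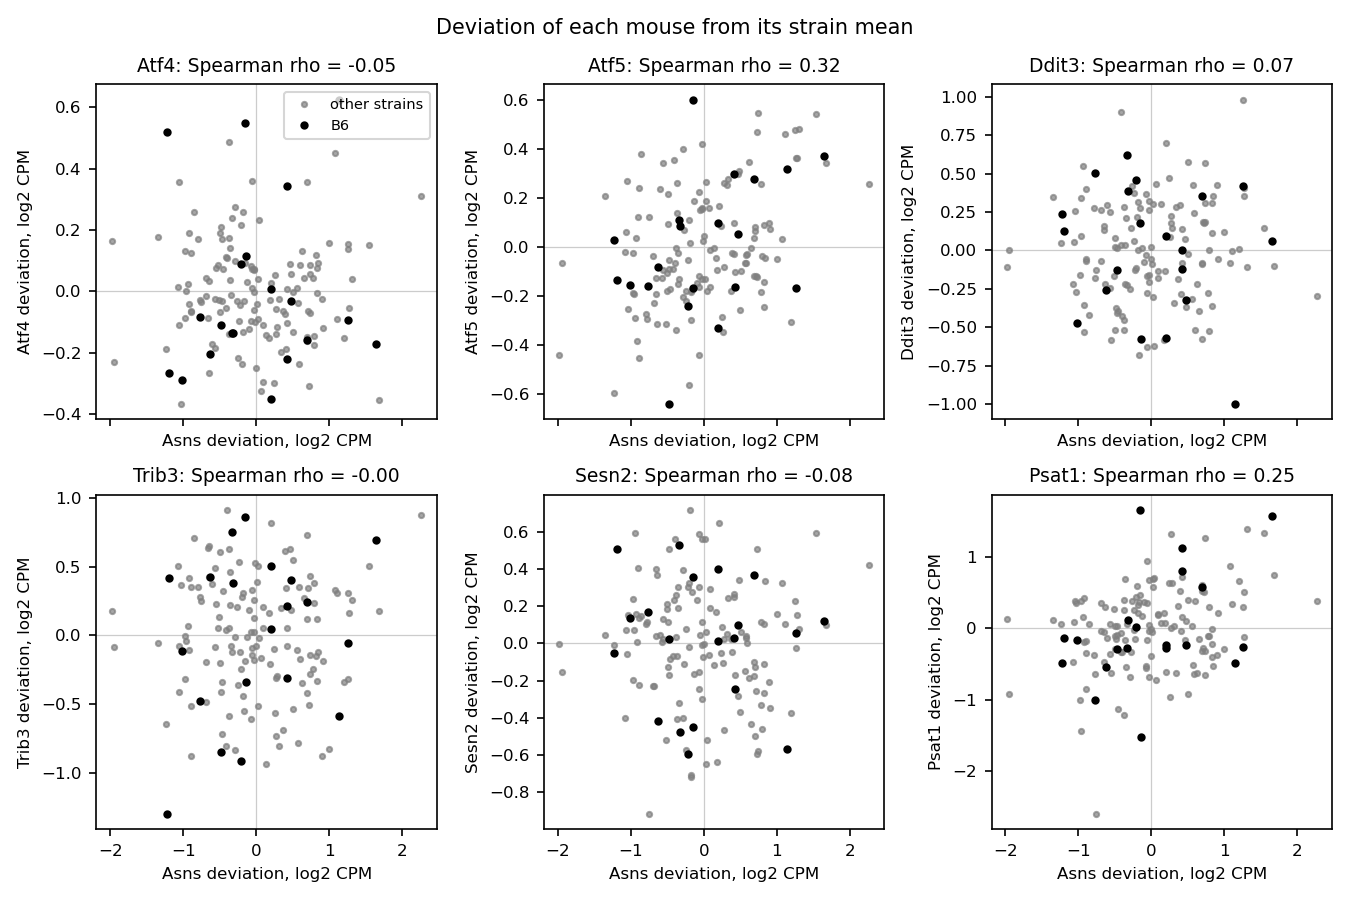
Deviation of each mouse from its strain mean (log2 CPM) for Asns (horizontal axis) and for each of the other 6 genes (vertical axes), with B6 mice in black and mice of other strains in grey. A rising trend is visible for Atf5 (rho = 0.32) and Psat1 (rho = 0.25), and the clouds of Atf4, Ddit3, Trib3 and Sesn2 are level.

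Among the other 6 genes, 15 pairs were tested in the same way, a choice that was made after the results for Asns were known. By Spearman's rho, Trib3 and Sesn2 were the only pair of the 15 to pass, with r = 0.31 and rho = 0.31 (adjusted permutation p = 0.00525 and 0.00465) and r = 0.32 without the 2 mice farthest from the median of Trib3. Atf4 and Ddit3 had rho = -0.22 and Atf5 and Trib3 had rho = 0.22, and both missed the threshold on this measure (adjusted permutation p = 0.0713), although they passed by Pearson's r (-0.24 and 0.26, adjusted permutation p = 0.0417 and 0.0285), as did Atf5 and Psat1 (r = 0.23, adjusted permutation p = 0.0417). After 5 surrogate variables had been removed, r for Atf4 and Ddit3 was 0.02 (adjusted permutation p = 0.952), so that its sign turned. In the 20 B6 mice alone none of the 15 pairs passed by rho. Across the 24 strain means the rank correlation with Asns, given as a description, was 0.70 for Psat1 and 0.43 for Atf5, and between -0.31 and 0.13 for the other 4.

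The patterns most like that of Asns were also sought among genes averaging 0 or more in log2 CPM, as a description without a test. Over the 24 strain means the highest Spearman correlations were those of Ppp3cc (0.78), a catalytic subunit of calcineurin, Stk25 (0.75), Nudt4 (0.74), Col4a5 (0.74) and Tcf12 (0.74). Ppp3cc lies on chromosome 14 and Nudt4 on chromosome 10, which were substituted in some of the strains, and the part of cis effects was not tested. Within strains, over all mice, the highest correlations were those of Acsl4 (0.55), which activates long fatty acids, Got1 (0.53), the cytosolic aspartate aminotransferase, Gnat1 (0.52), Psmd9 (0.50) and Sult1e1 (0.50), the estrogen sulfotransferase. No gene appears in both lists. Of the other ATF4 targets, 4 of 19 had a within-strain correlation above 0.3, as did 3 of 13 genes of the synthetase list and 2 of 7 genes of serine and one-carbon metabolism, compared with 2.9% of all genes. Cth, which makes cysteine from cystathionine, was the highest of the last list at 0.47. Lists outside the pathway had shares of the same size, with 3 of 8 hepatocyte markers, 3 of 13 fasting and glucocorticoid genes and 1 of 5 erythroid markers above 0.3. None of the 16 endoplasmic reticulum stress genes and none of the 9 transporters was above 0.3.

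Hepatocyte markers overlapped with Asns in some of the effects called. Of the 8, 7 were lower with chromosome 8 (29.6% of all genes called) and 6 with chromosome 14 (22.5%), while none was called for chromosome 5. In interactions 6 were higher in A14:A8 (32.4% of all genes), 5 in A6:A8 (24.8%) and 3 in A3:A8 (7.56%), a cross in which Asns was not called, and none was lower. Against B6, none was called in (B6.A14 x B6.A5)F1 or (B6.A6 x B6.A5)F1, and 2 were lower in (B6.A3 x B6.A5)F1. Cps1, the enzyme that starts the urea cycle, had an interaction of 1.33 in A14:A8 (SE 0.16, edgeR adjusted p = 1.68e-11). Of 120 interactions of the 8 markers of sinusoidal endothelial cells, 16 were called, all lower, compared with 5.96% called over all genes. Within strains the summed level of 5 erythroid genes had a rank correlation of 0.28 with Asns, that of 8 hepatocyte markers 0.21 and that of 9 stellate cell and fibroblast markers -0.21, and for the other 6 lists the values lay between -0.16 and 0.07. In the 14 mice of the 3 strains separated from B6 in Asns, the hepatocyte sum ranged from 93666 to 134943 CPM, compared with 102891 to 162860 CPM in B6. The level of the acinar gene Cela1 had a median of 9.07 CPM in (B6.A3 x B6.A5)F1 and 4.64 CPM in B6. For the muscle gene Myh4 the medians were 0.475 CPM in (B6.A3 x B6.A5)F1 and 0 CPM in B6, and the highest mice had 87.7 and 1.45 CPM. In this double CSS, where 13.5% of all genes were called, 4 of 8 endothelial markers were higher and 8 of 13 fasting and glucocorticoid genes were lower than in B6. The sum of 10 Kupffer and myeloid markers was 318.1 to 460.1 CPM in the 14 mice of the 3 separated strains and 337 to 600 CPM in B6. Of 14 pancreatic acinar markers only Cela1 was measured, at strain means of 4.22 to 7.98 CPM, and of 6 skeletal muscle markers only Myh4, at strain means from 0 to 18.6 CPM. Cela1 had an interaction of -1.13 in A14:A8 (SE 0.22, edgeR adjusted p = 1.9e-05), the cross in which that of Asns was positive. Depth had a within-strain rank correlation of 0.06 with Asns. The part of these markers in the levels of Asns was not tested.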

How the data were processed

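Liver RNA was sequenced as stranded total RNA by the authors, and aligned to mm10 with TopHat2. Next, unaligned reads were mapped to an A/J genome, and HTSeq gave gene counts. The values deposited are these raw counts, with 3 outlier samples removed and low genes filtered by the authors. Flow cells are not labelled. The members and lists were chosen with earlier results of these data known. All 13289 genes and all mice were fitted with edgeR 4.0.16 in R 4.3.3 (TMM, trended dispersion, quasi-likelihood F-test), with 5 surrogate variables from sva 3.50.0. P-values were adjusted by Benjamini-Hochberg within each effect, separately for genes in cis and in trans of the substituted chromosomes, and over all genes for joint tests. The log2 CPM values used a prior count of 2. Strains came from the labels, and mice are separate animals. Members, called effects and, for each pathway or marker list, up to 3 genes with the largest called change and an average log2 CPM of at least 0 are named. One such gene is not reported here. The alternatives tried were no or 10 surrogate variables, estimating them from unscaled counts, DESeq2 1.42.0 size factors or Wald test, the count filter that the study states, a newer dispersion setting of edgeR, no cis and trans strata, an FDR of 0.01 and leaving out mice. On simulated data, 100 of 100 genes changed by a log2 value of 1 in A8 and 96 of 100 changed by 1.5 in A14:A8 were recovered. Genes of low mean count, such as Psat1, received no planted change, smaller changes were not planted, and no variation shared between genes was simulated. The recovery therefore does not extend to Psat1, to smaller effects or to the choice of surrogate variables. Depth limits the precision of Psat1 most.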

Additional observations from a re-analysis of the deposited data

Results flagged for a closer look

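In 7 combinations of gene and strain (4.55% of those tested) the highest or lowest mouse stood apart from the rest of its strain, and chance alone flags about 1 in 20. The log2 CPM of the mouse that stood apart was 7.56 for Atf5 in (B6.A3 x B6.A10)F1 replicate 1. For Ddit3 it was 1.35 in (B6.A17 x B6)F1 replicate 3 and 2.31 in (B6.A6 x B6.A8)F1 replicate 3. For Trib3 it was 1.59 in (B6.A6 x B6)F1 replicate 3. For Psat1, a gene of few counts, it was 0.34 in (B6 x B6.A8)F1 replicate 8, 1.07 in (B6.A17 x B6.A10)F1 replicate 2 and -3.07 in (B6.A6 x B6.A8)F1 replicate 2, the mouse with 0 counts. None of the mice that stood apart belonged to Asns, Atf4 or Sesn2.

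In 10 of 105 combinations of gene and cross, the effect of a substituted chromosome on the B6 background differed from its effect beside the other substituted chromosome, by edgeR's test of the interaction. Over all genes the share was 5.96% of such pairs, with 24.8% of genes called in A6:A8 and 32.4% in A14:A8. On the log2 scale the 10 interactions were 1.98 for Asns in A6:A8 and 1.88 in A14:A8, 1.70 for Psat1 in A6:A8 and 1.72 in A14:A8, 0.76 for Atf5 in A6:A8 and 0.64 in A17:A4, 1.30 for Trib3 in A3:A8 and 0.83 in A6:A8, 0.97 for Ddit3 in A14:A4 and -0.38 for Atf4 in A14:A8. With 10 surrogate variables most of the 10 interaction calls were lost. Among the lost calls were those for Asns and Atf4 in A14:A8, Atf5 in A6:A8 and Trib3 in both crosses. Those for Ddit3 and Atf4 were lost without surrogate variables. That for Atf5 in A17:A4 was lost when any mouse of the double CSS was left out.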

How the results depend on the processing

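Of 32 combinations of gene and effect that were called, 11 kept the call under all 10 alternatives other than leaving out mice, and DESeq2's Wald test and edgeR's newer dispersion setting kept all 32. With 10 surrogate variables 13 kept the call, and the counts of calls were 4 instead of 13 in main effects, 3 instead of 10 in interactions, 4 instead of 7 in the joint test of strains, 0 instead of 3 in that of interactions, while 10.3% instead of 16.1% of main effects and 4.29% instead of 8.93% of interactions of the pathway lists were called. At an FDR of 0.01 the same values were 7, 6, 3 and 0 calls, 8.93% and 5.83%. Over all genes, 11.1% of main effects and 5.96% of interactions were called with 5 surrogate variables. These all-gene shares also fell, to 4.25% and 1.23% with 10 surrogate variables and to 5.58% and 2.97% at an FDR of 0.01. The share of pathway interactions was 16.7% without surrogate variables and 16.2% with surrogate variables from unscaled counts, with which 14 instead of 9 differences of double CSSs were called. The value of Atf4 for A8 changed sign to -0.0466 without surrogate variables and to -0.0165 with those from unscaled counts. In B6 mice alone 0 of 6 pairs with Asns and 0 of 15 other pairs passed, and rho with Asns changed sign to 0.16 for Atf4, -0.20 for Ddit3 and 0.18 for Trib3. With surrogate variables removed 3 of the 15 passed and rho was 0.0848 for Trib3. The cause was not tested. Leaving out each of 65 mice gave 5 to 7 genes in the joint test of strains, 1 to 4 in that of interactions, 9 to 10 interactions, 8 to 9 double CSS differences and 7.86% to 9.05% of pathway interactions. For the last 3 counts only the calls of the left-out mouse's own cross were replaced, so they could move little. No mouse of (B6.A6 x B6.A8)F1, which held 6, was left out, so its interaction calls were not tested in this way. Surrogate variables and trended dispersions were kept from the fit of all mice. No paired analysis was possible because replicate numbers follow accession order only. The strata of cis and trans genes do not apply to the joint tests, for which DESeq2's Wald test was not run. Depth limits Psat1 most, and the 3 to 6 mice of a double CSS limit each interaction.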
